A study of Homo sapiens with 9 samples.

Results

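The genes of translation initiation factors were examined as a family in human mammary epithelial cells labelled as knockouts of a protein of base excision repair. Every gene whose symbol begins with EIF and a digit was taken from the authors' deposited tables, which gave 54 of 13052 genes. The cells were MCF10A, a non-transformed line kept in medium with horse serum, epidermal growth factor, cholera toxin, insulin and hydrocortisone. Poly(A) RNA was sequenced in 9 libraries: 3 of Control-KO cells, which express Cas9 and have the genotype label WT, 3 with APE1 knocked out and 3 with XRCC1 knocked out. Both knockouts were derived from the Cas9-expressing cells, so Cas9 belongs to all groups, and the labels do not say whether a knockout is 1 clone or a pool. Nor do they name separate cultures, so a p-value here measures the spread between libraries, which may be technical. The authors deposited 1 comparison per knockout, each against the same Control-KO libraries. Values per library, and with them each library's depth, were not analysed here.

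Initiation brings a small ribosomal subunit with the initiator tRNA to the start codon of a capped mRNA. The initiator tRNA is carried by the GTP-binding complex eIF2, which the exchange factor eIF2B recharges with GTP. The cap is bound by eIF4E, which joins the scaffold eIF4G and the helicase eIF4A, and eIF3 bridges this complex to the ribosome. The EIF2AK kinases phosphorylate the alpha subunit of eIF2 under stress, which turns eIF2 into an inhibitor of eIF2B. The EIF4EBP proteins keep eIF4E from eIF4G until the kinase mTOR phosphorylates them. Both controls act mainly on proteins, so a transcript level is no measure of their activity.

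Transcripts of ribosomal proteins and of several translation factors are known to begin at a C followed by an unbroken run of pyrimidines, a tract through which mTOR controls their translation. To show what the starts of these genes look like, 30 bases around an annotated start are given from RefSeq (GRCh38.p14). The strand is that of the gene, minus for EIF3D and plus for the others. Each line runs 5′ to 3′ from 10 bases before the start, and capitals mark a C followed by at least 6 pyrimidines, wherever it lies in the window. EIF2S3 and its copy EIF2S3B are shown because their starts are almost the same, and the others as examples from eIF3, the cap complex and tRNA delivery with runs of at least 8 bases.
EIF3F (chr11:7987327-7987356): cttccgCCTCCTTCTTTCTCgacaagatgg
EIF3D (chr22:36529147-36529176): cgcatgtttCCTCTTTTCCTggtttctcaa
EIF3K (chr19:38619178-38619207): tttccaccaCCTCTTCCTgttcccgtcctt
EIF3M (chr11:32583821-32583850): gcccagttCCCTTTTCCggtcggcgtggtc
EIF4B (chr12:53006446-53006475): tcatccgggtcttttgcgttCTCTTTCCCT
EIF2A (chr3:150546777-150546806): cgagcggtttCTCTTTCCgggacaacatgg
EIF2S3 (chrX:24054946-24054975): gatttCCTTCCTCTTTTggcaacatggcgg
EIF2S3B (chr12:10505880-10505909): gaCTTTCTTCCTCTTTTggcaacatggcgg

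Of the 54 genes, 45 had a start sequence, and some had several annotated starts. At any of their starts, 14 of these 45, or 31.1%, held such a run on their own strand. The share was 20.1% of the 10267 tested genes with a start sequence and 17.9% of all 27305 symbols with one. For XRCC1-KO the median log2 fold change was 0.02 over the 14 genes and -0.01 over the 31 without a run, and for APE1-KO it was 0.01 and 0.02. The genes with a run had shorter transcripts, with a median of 1928.5 against 2596 bases, and length went with the XRCC1-KO values as described at the end. A gene without a run lacks only these letters in the windows of its annotated starts. EIF3A, EIF3G, EIF3E, EIF2S2, EIF3CL, EIF4EBP1, EIF3H, EIF3L and EIF2AK1 were not matched.

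The family was abundantly transcribed, and its members differed far more in level than between knockout and control. The deposited tables give 1 abundance per gene, equal in both, and do not state over which libraries it was taken. Its median was 7.12 log2 CPM over the 54 genes, against 4.88 over all genes tested. Per kilobase of transcript, the highest levels were those of EIF5A, the hypusine-bearing factor that helps ribosomes through difficult peptide bonds, at 9.62 log2 CPM per kb, and of EIF4A1, the main cap-complex helicase, at 9.58. EIF3E, an eIF3 subunit, at 8.54 and EIF4G2, a scaffold that lacks the eIF4E-binding region, at 8.53 log2 CPM per kb came next. With no spread over libraries at hand, the order within such close pairs could not be settled.

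Within eIF3 the 13 genes other than EIF3CL lay between 6.02 log2 CPM per kb for EIF3M and 8.54 for EIF3E. The genes of the eIF2 subunits stood in the order EIF2S3 at 7.30, EIF2S2 at 6.63 and EIF2S1 at 5.61 log2 CPM per kb. The 5 genes of eIF2B were lower, from 2.72 for EIF2B2 to 5.17 log2 CPM per kb for EIF2B1, so each gene of the exchange factor had a lower level than each of these subunits of its substrate. Among the kinases, EIF2AK1, EIF2AK4 and EIF2AK2 were at 5.20, 5.02 and 4.90 log2 CPM per kb, and EIF2AK3 was lowest at 2.50. With the longest transcript the first 3 were at 5.20, 4.39 and 3.69 and EIF2AK3 at 2.43. The eIF4E-binding proteins stood in the order EIF4EBP1 at 6.22, EIF4EBP2 at 4.12 and EIF4EBP3 at 0.85 log2 CPM per kb. EIF4E3 (1.45) and the copies EIF2S3B (1.10), EIF3CL (0.88) and EIF5AL1 (0.62 log2 CPM per kb) were also low.

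**Figure D1:**
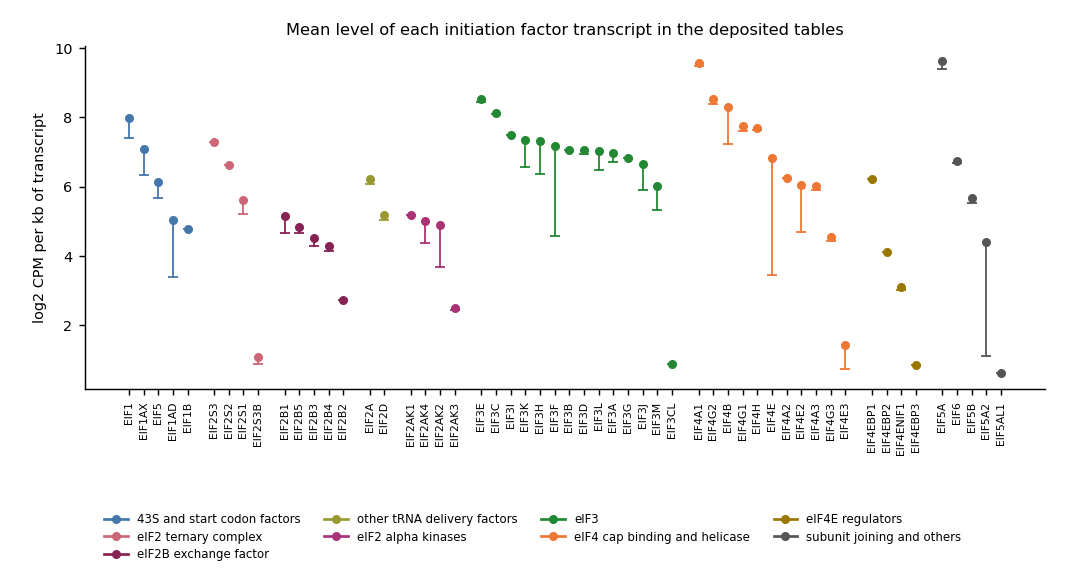
Deposited level of each of the 54 genes in the deposited tables, as log2 CPM per kilobase of transcript, grouped by role. Points use the median length of a gene's annotated protein-coding transcripts and dashes the longest one, so a wide gap, as for EIF4E (6.83 and 3.46), marks a level that depends on the transcript chosen.

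No initiation factor gene passed an adjusted p of 0.05 in either knockout. For XRCC1-KO, 0 of 54 passed in the authors' deposited table, where 0 of 13052 genes did (0.0%). For APE1-KO, 0 of 54 passed and 1 gene in all (0.00766%), which was APEX1 itself. At an unadjusted p under 0.05, 2 of the 54 were lower for XRCC1-KO (2.7% of all genes) and 0 were higher (3.26% of all genes), together 3.7% of members beside 5.96% of all genes. For APE1-KO, 0 members were higher (0.774% of all genes) and 0 lower (0.674%), beside 1.45% of all genes.

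The values were centred near 0 and narrow. For XRCC1-KO the 54 genes had a median of 0.001 on the log2 scale, with 28 above 0 (51.9%, beside 49.7% of all genes). For APE1-KO the median was 0.01, with 32 above 0 (59.3%, beside 49.5% of all genes). Over all genes both medians were -0.001. Among the 49 members with an abundance of at least 4 log2 CPM, the median absolute log2 fold change was 0.08 for XRCC1-KO and 0.03 for APE1-KO, and the 8344 genes at that abundance had 0.09 and 0.04.

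The errors were small enough to bound most changes. In each knockout the 95% interval lay within a 1.5-fold change either way for 49 of 54 genes (90.7%), beside 74.8% of all genes for XRCC1-KO and 78.1% for APE1-KO. These shares were not matched for abundance, which was higher for the members (median 7.12 against 4.88 log2 CPM). The exceptions for XRCC1-KO were EIF2S3B, EIF3CL, EIF4EBP3, EIF4ENIF1 and EIF5A2, and for APE1-KO they were EIF2S3B, EIF3CL, EIF4EBP3, EIF5A2 and EIF5AL1. Apart from EIF4ENIF1, at 4.91 log2 CPM, these genes had an abundance under 4 log2 CPM.

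**Figure D2:**
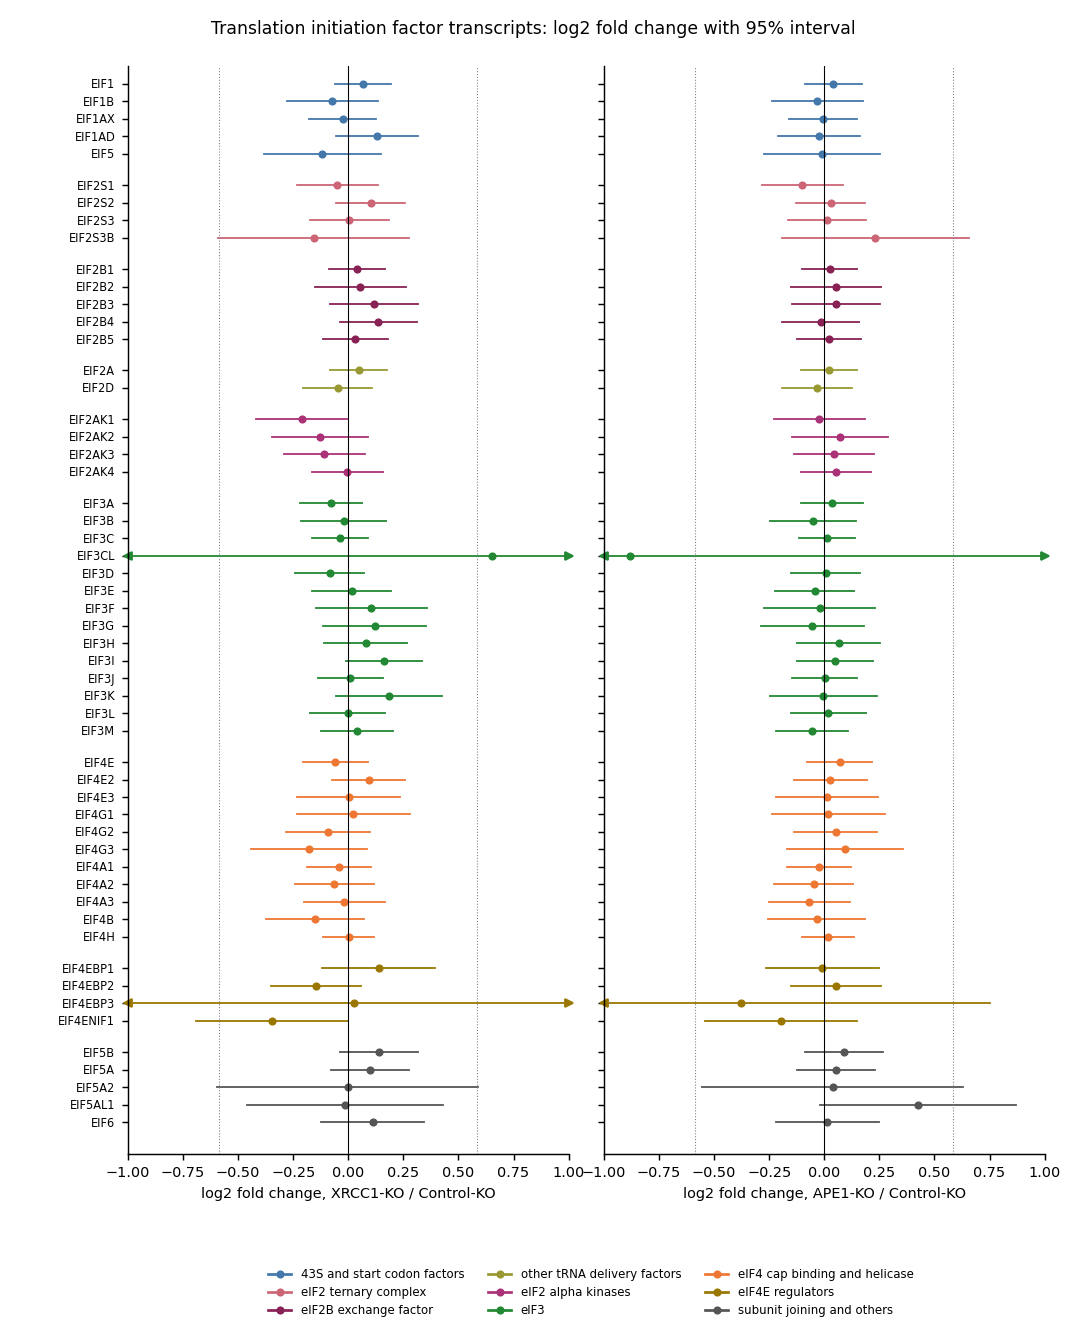
Log2 fold change of each initiation factor gene with its 95% interval, for XRCC1-KO (left) and APE1-KO (right) over Control-KO, coloured by role; dotted lines mark a 1.5-fold change and arrowheads intervals that go on past the axis. Nearly all intervals span 0, those of EIF2AK1 and EIF4ENIF1 for XRCC1-KO end just below it, and EIF3CL and EIF4EBP3 have the widest.

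The genes of the eIF2 subunits stayed within narrow bounds. EIF2S1 encodes the alpha subunit that the stress kinases phosphorylate and lies on hg19 chromosome 14, from 67826714 to 67853233, on the plus strand. The authors' deposited table for XRCC1-KO puts it at -0.05 on the log2 scale (95% interval -0.23 to 0.13, p = 0.572, adjusted p = 0.899). Their table for APE1-KO, also the authors' deposited one, puts it at -0.10 (interval -0.28 to 0.09, p = 0.27, adjusted p = 1). EIF2S2, the beta subunit, had the smallest p of the group for XRCC1-KO, at 0.10 (interval -0.05 to 0.26, the authors' deposited p = 0.185, adjusted p = 0.774), and was at 0.03 for APE1-KO.

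EIF2S3, the GTP-binding gamma subunit, was at 0.01 in both of the authors' deposited tables. EIF2S3B, its copy on chromosome 12, was at -0.16 for XRCC1-KO and 0.23 for APE1-KO (interval -0.19 to 0.66, the authors' deposited p = 0.263, adjusted p = 1) on an abundance of 2 log2 CPM. Of its 31-base words 36.5% also occur in EIF2S3, so its reads are uncertain.

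All 5 genes of eIF2B were above 0 for XRCC1-KO, and none passed. EIF2B4, the delta subunit, was at 0.14 (interval -0.04 to 0.31, the authors' deposited p = 0.12, adjusted p = 0.76). EIF2B3, the partner of the catalytic subunit, was at 0.12, the regulatory subunit EIF2B2 at 0.05, EIF2B1, which senses phosphorylated eIF2, at 0.04 and the catalytic EIF2B5 at 0.03 in the authors' deposited table. Their median was 0.05, or 1.04-fold. The median standard error of a single one of these genes was 0.08, which is not the error of their median. With the trend in transcript length and GC content described at the end removed, the median was 0.086. It was 0.060 with the longest annotated transcript in place of the median one. For APE1-KO the 5 values ran from -0.02 for EIF2B4 to 0.05 for EIF2B3 (interval -0.14 to 0.25, the authors' deposited p = 0.574, adjusted p = 1). The deposited span of EIF2B5, hg19 chromosome 3 from 183852826 to 184402546, takes in that of EIF4G1, from 184032283 to 184053146 on the same strand.

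The other factors that can deliver tRNA to the ribosome lay as close to 0. EIF2A was at 0.05 for XRCC1-KO (interval -0.08 to 0.17, the authors' deposited p = 0.45, adjusted p = 0.851) and 0.02 for APE1-KO. EIF2D was at -0.05 for XRCC1-KO and -0.03 for APE1-KO (interval -0.19 to 0.12, the authors' deposited p = 0.66, adjusted p = 1).

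The 4 kinases of eIF2 were all below 0 for XRCC1-KO, with a median of -0.12 or 0.921-fold. EIF2AK1, the heme-regulated kinase HRI on hg19 chromosome 7, from 6061881 to 6098861 on the minus strand, was at -0.21 or 0.864-fold (interval 0.748 to 0.997, the authors' deposited p = 0.0462, adjusted p = 0.76). EIF2AK2, the kinase PKR that binds double-stranded RNA, was at -0.13 (interval -0.35 to 0.09, the authors' deposited p = 0.228, adjusted p = 0.775), and the upper end of its interval is 1.06-fold. EIF2AK3, the endoplasmic reticulum kinase PERK, was at -0.11, and EIF2AK4, the amino acid sensor GCN2, at -0.004 in the authors' deposited table.

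All 4 kinase genes have long transcripts, between 3548 and 4469 bases, and for genes of like length and GC content the fitted XRCC1-KO values were -0.09 for EIF2AK1, -0.11 for EIF2AK2, -0.10 for EIF2AK3 and -0.06 for EIF2AK4. With that trend removed the median of the 4 was -0.01, and EIF2AK1 was at -0.12 (p = 0.233 with the standard error of the authors' deposited table). For APE1-KO the kinases lay on both sides of 0. EIF2AK2 was at 0.07 (interval -0.14 to 0.29, the authors' deposited p = 0.486, adjusted p = 1), EIF2AK4 at 0.05, EIF2AK3 at 0.04 and EIF2AK1 at -0.02.

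Factors that select the start codon lay on both sides of 0. EIF1, which guards start codon choice, was at 0.07 for XRCC1-KO and 0.04 for APE1-KO (interval -0.09 to 0.17, the authors' deposited p = 0.505, adjusted p = 1). Its paralog EIF1B, with which it shares no 31-base word, was at -0.07 and -0.03 in the authors' deposited tables. EIF1AX, which works with EIF1 in scanning, was at -0.02 and -0.01. EIF1AD, a gene named for an eIF1A domain, was at 0.13 for XRCC1-KO (interval -0.05 to 0.31, the authors' deposited p = 0.155, adjusted p = 0.76) and -0.02 for APE1-KO. EIF5, which activates GTP hydrolysis by eIF2, was at -0.12 and -0.01.

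Within eIF3 the highest XRCC1-KO values after that of EIF3CL belonged to genes with transcripts of 780 to 1458 bases, and none passed. The authors' deposited table has EIF3K at 0.19 (p = 0.125), EIF3I at 0.16, EIF3G at 0.12 and EIF3F at 0.11. EIF3E, at 1433.5 bases also in that range of length, was at 0.02, and the longest transcript of EIF3F has 7540 bases. EIF3I, a propeller-shaped subunit on hg19 chromosome 1, from 32687529 to 32697205 on the plus strand, had the smallest p of the complex (interval -0.01 to 0.34, the authors' deposited p = 0.0617, adjusted p = 0.76). The lowest were EIF3D, which can itself bind the cap, at -0.08, and EIF3A, the largest subunit, also at -0.08 (interval -0.22 to 0.06, the authors' deposited p = 0.259, adjusted p = 0.785).

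Between them the authors' deposited table for XRCC1-KO has EIF3H at 0.08, EIF3M at 0.04, EIF3E at 0.02, the loosely bound EIF3J at 0.01, EIF3L at -0.003, the scaffold EIF3B at -0.02 and EIF3C, a partner of EIF3A in the core, at -0.04. Without EIF3CL the 13 genes had a median of 0.02, and the median standard error of a single gene among them was 0.08. For APE1-KO the same 13 genes spanned a narrower range, from -0.06 for EIF3M to 0.07 for EIF3H, with a median of 0.002. There EIF3A was at 0.03 (interval -0.11 to 0.17, the authors' deposited p = 0.617, adjusted p = 1), EIF3I at 0.05, EIF3L at 0.02, EIF3C and EIF3D at 0.01, EIF3J at 0.002, EIF3K at -0.004, EIF3F at -0.02, EIF3E at -0.04, and EIF3B and EIF3G at -0.05.

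EIF3CL had the largest fold changes of the family and the least certain ones. It was at 0.65 for XRCC1-KO (interval -1.60 to 2.90, the authors' deposited p = 0.547, adjusted p = 0.888). For APE1-KO it was at -0.88 (interval -3.23 to 1.47, the authors' deposited p = 0.437, adjusted p = 1). EIF3CL is a near-identical copy of EIF3C on the same chromosome, and 98.5% of its 31-base words also occur in EIF3C, so the counting could split reads between them. EIF3C had an abundance of 9.76 log2 CPM against 2.5 for EIF3CL.

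In the cap-binding complex the main members lay close to 0 in both knockouts. EIF4E, the cap-binding protein, was at -0.06 for XRCC1-KO (interval -0.21 to 0.09, the authors' deposited p = 0.411, adjusted p = 0.831). For APE1-KO it was at 0.07 (interval -0.08 to 0.22, the authors' deposited p = 0.326, adjusted p = 1), the smallest p of the complex there. EIF4A1 was at -0.04 for XRCC1-KO (interval -0.19 to 0.11, the authors' deposited p = 0.565, adjusted p = 0.896) and -0.03 for APE1-KO (p = 0.71). The intervals of EIF4E and EIF4A1 for XRCC1-KO lie between 0.867-fold and 1.08-fold. EIF4G1, the main scaffold, was at 0.02 in both of the authors' deposited tables (interval -0.23 to 0.28, p = 0.848 and adjusted p = 0.966 for XRCC1-KO, interval -0.24 to 0.27 and p = 0.883 for APE1-KO).

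Some of their relatives had lower values for XRCC1-KO, none of which passed. EIF4B, the RNA-binding partner of the helicase, was at -0.15 (interval -0.37 to 0.07, the authors' deposited p = 0.169, adjusted p = 0.765) and EIF4G3, another scaffold, at -0.18 (interval -0.44 to 0.09, p = 0.171). EIF4G2 was at -0.09 in the authors' deposited table. For APE1-KO, EIF4B was at -0.03, EIF4G3 at 0.09 and EIF4G2 at 0.05. EIF4A2, a close paralog of EIF4A1, was at -0.06 for XRCC1-KO and -0.05 for APE1-KO, and EIF4A3, a core part of the exon junction complex, at -0.02 and -0.07. EIF4E2, which represses translation with GIGYF2, was at 0.09 and 0.03, EIF4E3 at 0.001 and 0.01, and EIF4H, which stimulates the helicase, at 0.001 and 0.02. Of the 11 genes 7 were below 0 for XRCC1-KO (median -0.04) and 4 for APE1-KO (median 0.02).

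Among the regulators of eIF4E, EIF4ENIF1 had the lowest XRCC1-KO value of the family. Also called 4E-T, it carries eIF4E into the nucleus and represses mRNAs in P-bodies. On hg19 chromosome 22, from 31832963 to 31892094 on the minus strand, it was at -0.35 or 0.787-fold (interval 0.62 to 0.998, the authors' deposited p = 0.0487, adjusted p = 0.76). For APE1-KO EIF4ENIF1 was at -0.20 (interval -0.54 to 0.15, the authors' deposited p = 0.24, adjusted p = 1). With the length and GC trend removed it was at -0.30 for XRCC1-KO (p = 0.0785 with the standard error of the authors' deposited table).

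The abundant eIF4E-binding proteins lay on opposite sides of 0 for XRCC1-KO. EIF4EBP1, also a known target of the transcription factor ATF4, was at 0.14 (interval -0.12 to 0.40, the authors' deposited p = 0.272, adjusted p = 0.789), and EIF4EBP2 at -0.15 (p = 0.151). Their transcripts are among the shorter ones and the longest of the family, at 1020 and 7257 bases, and genes of like length and GC content had fitted values of 0.16 and -0.10. With the trend removed they were at -0.02 and -0.04. For APE1-KO EIF4EBP1 was at -0.01 (interval -0.27 to 0.25, the authors' deposited p = 0.941, adjusted p = 1) and EIF4EBP2 at 0.05. EIF4EBP3 was near the floor at 0.31 log2 CPM and shares 72.6% of its 31-base words with the read-through gene ANKHD1-EIF4EBP3. Its values of 0.03 and -0.38 are uncertain.

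EIF5B, EIF5A and EIF6 were above 0 in both knockouts, and none passed. EIF5B, the GTPase that joins the ribosomal subunits, lies on hg19 chromosome 2, from 99953816 to 100017789, on the plus strand. It was at 0.14 or 1.1-fold for XRCC1-KO (interval -0.04 to 0.31, the authors' deposited p = 0.116, adjusted p = 0.76). For APE1-KO EIF5B was at 0.09 (interval -0.09 to 0.27, the authors' deposited p = 0.294). Genes of its length and GC content had a fitted value of -0.11 for XRCC1-KO, and with the trend removed EIF5B was at 0.25 (p = 0.00895 with the standard error of the authors' deposited table, adjusted p = 0.996). It was the 1 member with an unadjusted p under 0.05 on that scale, as were 4.31% of all genes, and for APE1-KO there was none, beside 1.39% of all genes.

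EIF5A was at 0.10 for XRCC1-KO and 0.05 for APE1-KO, and EIF6, which keeps the large subunit from joining too early, at 0.11 and 0.01 in the authors' deposited tables. With the trend removed EIF5A was at 0.008 and EIF6 at 0.007 for XRCC1-KO, and the median of the 5 genes of this role went from 0.10 to 0.008. EIF5A2 was at -0.002 and 0.04, with intervals that reach past a 1.5-fold change. EIF5AL1, a copy of EIF5A that shares 16.5% of its 31-base words with it, had the smallest p of the family for APE1-KO, at 0.42 or 1.34-fold (interval 0.986 to 1.83, the authors' deposited p = 0.0599, adjusted p = 1). For XRCC1-KO EIF5AL1 was at -0.01. Its abundance was 2.56 log2 CPM, against 10.0 for EIF5A, so its reads are also uncertain.

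The knockouts were also compared with each other, by the difference of their log2 fold changes, in which the shared controls cancel. At an adjusted p of 0.05, 0 of 54 passed (0.00766% of all genes), and at an unadjusted p under 0.05, 0 were higher (0.467% of all genes) and 0 lower (0.268%), beside 0.736% in both directions. Above 0 were 28 of 54 (51.5% of all genes). The interval lay within a 1.5-fold change for 47 of 54 (62.0% of all genes, again not matched for abundance). The standard error adds both errors without their covariance and is conservative. With the correlation of 0.5 that shared controls would give, 1 member had an unadjusted p under 0.05, as had 5.48% of all genes. This was EIF4G3, lower in XRCC1-KO than in APE1-KO at -0.27 (correlation 0.5, p = 0.0444, adjusted p = 0.725). With the length and GC trend removed its difference was -0.17.

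The 4 kinases were all lower in XRCC1-KO than in APE1-KO, at -0.20 for EIF2AK2 (interval -0.51 to 0.11), -0.19 for EIF2AK1 (interval -0.48 to 0.10), -0.15 for EIF2AK3 and -0.06 for EIF2AK4, and each interval spans 0. With the length and GC trend removed from the difference, their median went from -0.17 to -0.06, and EIF2AK4 was at 0.007. All 5 eIF2B genes were higher, from 0.002 for EIF2B2 to 0.15 for EIF2B4 (interval -0.09 to 0.40), and their intervals also span 0. With the trend removed EIF2B5 was at -0.004, and the median of the 5 went from 0.02 to 0.05. With the longest transcript in the fit that median stayed at 0.02. Before removal of the trend the median difference was -0.17 for the kinases, 0.02 for eIF2B, 0.04 for the 14 eIF3 genes and -0.02 for the 11 cap-complex genes, beside 0.01 over all genes.

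**Figure D3:**
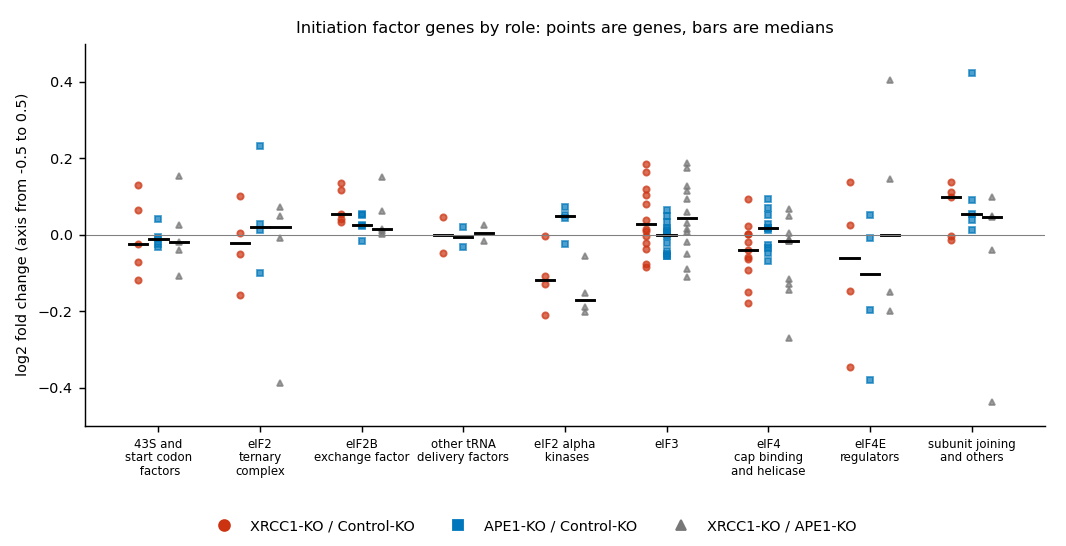
Log2 fold changes by role for XRCC1-KO over Control-KO, APE1-KO over Control-KO and XRCC1-KO over APE1-KO; each point is a gene, bars are medians, and EIF3CL (0.65, -0.88 and 1.53) lies beyond the axis. The kinases sit below 0 for XRCC1-KO (median -0.12) and mostly above it for APE1-KO (median 0.05).

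The XRCC1-KO values of the members went with transcript length, as those of genes at large did. In 10 bins of length over genes of at least 1 log2 CPM, the median log2 fold change for XRCC1-KO was 0.13 in the shortest bin and -0.10 in the longest. For APE1-KO these bins had 0.01 and 0.03. Across the 54 members Spearman's rho between transcript length and the log2 fold change was -0.459 for XRCC1-KO and 0.257 for APE1-KO, and across 11175 genes it was -0.436 for XRCC1-KO and 0.051 for APE1-KO. Within eIF3 without EIF3CL rho was -0.709 over 13 genes for XRCC1-KO, and -0.363 with the longest annotated transcript in place of the median one. With GC content rho was 0.389 across the members for XRCC1-KO. These are descriptions across genes that share the same libraries, and the part of RNA quality or library preparation in the trend was not tested.

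**Figure D4:**
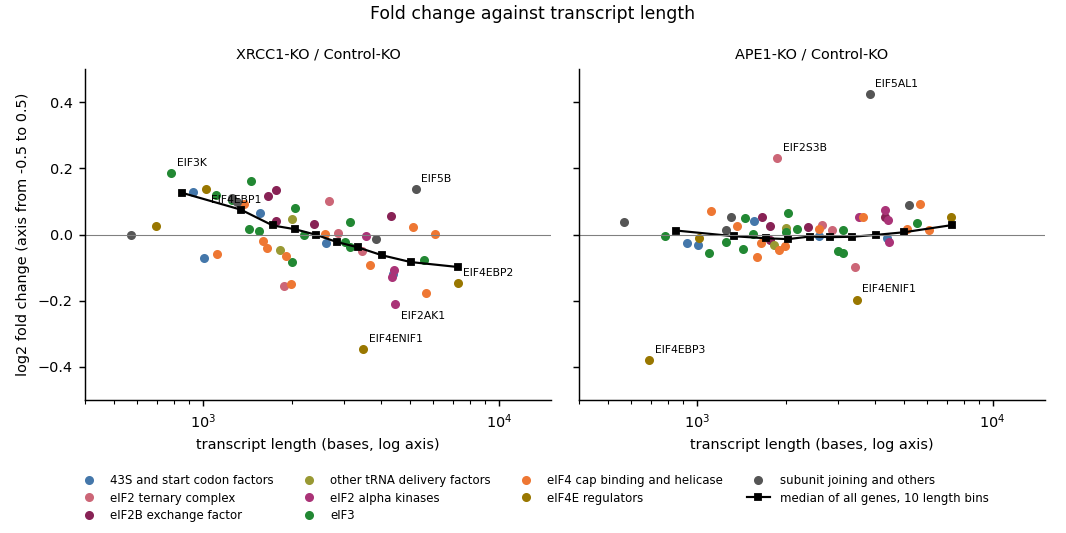
Log2 fold change of each initiation factor gene against transcript length (log axis) for XRCC1-KO (left) and APE1-KO (right), with the median of all genes in 10 length bins as a line; EIF3CL lies beyond the axis. For XRCC1-KO most points follow the line, from EIF3K (0.19) to EIF4EBP2 (-0.15), with EIF5B (0.14) above it and EIF4ENIF1 (-0.35) below it.

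Other genes of initiation, elongation and their control were examined from a list of 51, of which 50 were measured. None passed in either comparison, and their median was -0.01 for XRCC1-KO and -0.004 for APE1-KO. At an unadjusted p under 0.05, 2 of 50 were higher for XRCC1-KO (3.26% of all genes) and 1 lower (2.7% of all genes), shares near the background, and for APE1-KO 0 of 50 were (1.45% of all genes). The higher ones were the elongation factor subunit EEF1D at 0.25 (the authors' deposited p = 0.041, adjusted p = 0.76) and DDIT3, the stress transcription factor CHOP, at 0.72 on an abundance of 1.39 log2 CPM (the authors' deposited p = 0.0423). The lower one was PABPC4, a poly(A)-binding protein, at -0.13 (the authors' deposited p = 0.038).

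As a check of the labels, APEX1, which encodes APE1, was at -1.50 for APE1-KO and 0.02 for XRCC1-KO in the authors' deposited tables. XRCC1 was at 0.14 for XRCC1-KO, which leaves that label unchecked, since a knockout does not have to reduce a transcript. Markers of basal mammary epithelium were abundant (5 of 5 measured, 6.95 to 12.1 log2 CPM), as were 4 of 4 epithelial markers (6.34 to 8.88). Of 3 leukocyte markers 1 was measured, of 3 fibroblast markers 2 and of 3 endothelial markers 1, at 4.38 log2 CPM or less. Of 2 hormone receptor markers 1 was measured, and PGR was not. The measured one was ESR1, the estrogen receptor for which MCF10A is known as negative, at 6.62 log2 CPM. The part of other cells in the members' values was not tested.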

How the data were processed

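Per the labels' protocols, RNA was purified with the RNeasy Mini Kit and sequenced from stranded mRNA libraries. The submitters' processing notes name Trim Galore, Salmon 1.4.0, edgeR and hg19, without order or settings; filters and the model are not stated there. Per the file headers, the authors deposited, gene by gene, the log2 fold change, an abundance in log2 CPM, an F statistic (a score without unit), a p-value, an adjusted p-value (FDR) and the −log10 of the p-value. Depth is unknown.

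The members and gene lists were chosen with earlier results of these data known. Each standard error is the absolute log2 fold change over the square root of F. For F under 0.01 (8 members for XRCC1-KO, 6 for APE1-KO) the other comparison's was used; both errors differed by under 5% in 97.4% of genes. Intervals at 95% use t quantiles with degrees of freedom found from F and p (median 15.2, also used for F under 3). Adjustment is Benjamini-Hochberg over all 13052 genes. Transcript length and GC content are medians over protein-coding transcripts of GENCODE release 29, matched by gene ID for 54 of 54 members. The trend is a robust piecewise linear fit (statsmodels 0.14.6), with 4 knots per property, over 11175 genes. These steps were run on simulated data in which F was built as the squared ratio of log2 fold change to standard error. That run could not test whether the deposited F has this form. Full values go to members with an unadjusted p under 0.05, the smallest p of each role and the core subunits; EIF4G3, EIF3K and EIF4EBP2 were singled out after their values were seen.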

Additional observations from a re-analysis of the deposited data

How the results depend on the processing

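No paired analysis was possible because no values per library were at hand, and for the same reason no replicate could be left out. The count of 0 members past an adjusted p of 0.05 stayed 0 in all 3 comparisons when adjusted over genes of at least 1 log2 CPM, and for XRCC1-KO against APE1-KO also with a correlation of 0.5 and with the median degrees of freedom for every gene. With the length and GC trend removed, the members with an unadjusted p under 0.05 for XRCC1-KO went from 2 (EIF2AK1 and EIF4ENIF1) to 1 (EIF5B), and also to 1 with the longest transcript, a setting chosen after seeing the data. For XRCC1-KO against APE1-KO the count went from 0 to 1 (EIF4G3) with a correlation of 0.5. Of the role medians, 1 moved by more than the median standard error of a single member, a yardstick that is not the error of a median. This was that of the kinases for XRCC1-KO, from -0.12 to -0.01 with the trend removed. With the longest transcript it went to -0.03, a shift under that yardstick. Signs of medians changed in 5 of 30 with means and in 4 of 30 with the trend removed. The largest shift was 0.148 on the log2 scale, for the eIF4E regulators between the knockouts without EIF4EBP3, the member of lowest abundance. The 5 members under 4 log2 CPM have the widest intervals, and no limit from depth could be given.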
